A study of Mus musculus with 42 samples.

Results

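Ehmt1, Ehmt2, Suv39h1, Suv39h2, Setdb1 and Setdb2 are the genes of the mouse SET-domain enzymes that methylate lysine 9 of histone H3 (H3K9) as their main known or proposed substrate. They were chosen by name as a family, and are 6 of 27179 genes in the count table. Their RNA levels were measured by RNA-seq in spermatogonia, the mitotic germ cells of the testis, from mice in which the chromatin remodeler gene Chd8 was deleted in germ cells. Control mice carried Ddx4-Cre and 1 floxed and 1 wild-type Chd8 allele (Ddx4-Cre/Chd8+/F), and conditional knockout (CKO) mice carried Ddx4-Cre with 1 floxed and 1 null allele (Ddx4-Cre/Chd8F/-). Both genotypes therefore carried the Cre transgene and a floxed allele, and since Ddx4-Cre acts in germ cells, the somatic cells of CKO testes carry 1 functional allele fewer than those of controls. All mice were 10 days old (10 dpp). Cells were enriched on magnetic beads, first for c-Kit+ (differentiating) and then, from the unbound cells, for Thy1+ (undifferentiated) spermatogonia. The 4 groups, Thy1+ control, Thy1+ CKO, c-Kit+ control and c-Kit+ CKO, had 3 libraries each, 12 in all.

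Methyl groups on H3K9 mark silent chromatin. GLP (Ehmt1) and G9a (Ehmt2) form a heterodimer that mainly places mono- and dimethylation in euchromatin. SUV39H1 and SUV39H2 trimethylate H3K9 in pericentromeric heterochromatin, and Suv39h2 is known for its expression in the testis. SETDB1 is brought to retroelements and other targets by TRIM28 and zinc finger proteins and trimethylates H3K9 there. SETDB2 is a smaller relative whose activity is less well described. In male germ cells these marks are known for their part in retroelement silencing and in the behaviour of chromosomes at meiosis.

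In c-Kit+ cells Suv39h1, Setdb1 and Setdb2 were lower in CKO than in control libraries by 37.7% to 40.5%, whereas Ehmt1, Ehmt2 and Suv39h2 did not pass the test with differences from -6.66% to 0.531%. Of all tested genes 7.41% were called lower there. In Thy1+ cells the same 3 genes had log2 fold changes from -0.38 to -0.48 that did not pass the unblocked test, which called no gene in that population. With the replicate number as a block they passed the adjusted p, but not the fold minimum of 0.5. In that blocked fit 13.7% of all tested genes were lower at an adjusted p under 0.05. In control mice 5 of the 6 genes were higher in c-Kit+ than in Thy1+ cells at an adjusted p under 0.05, Setdb1 being the exception. By the same measure 13.7% of all tested genes were higher. The summed level of germ cell markers was also lower in CKO and higher in c-Kit+ libraries, and is given beside these results.

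The 250 bases before the RefSeq start site are shown for the 3 genes that fell in c-Kit+ cells, and for Suv39h2, the closest relative of one of them, which did not pass the test. The sequences are from RefSeq (GRCm38.p6, the build also called mm10) and read 5′ to 3′ on the gene's own strand. Capitals mark matches on either strand to 1 of 7 motifs. These were the CCAAT box (CCAAT), the GC box (GGGCGG), the E box (CACGTG), the CRE (TGACGTCA), the TATA box (TATAAA), an E2F motif (TTTCCCGC) and an ETS motif (CCGGAAGT).
Suv39h1 (chrX:8074761-8075010, minus strand): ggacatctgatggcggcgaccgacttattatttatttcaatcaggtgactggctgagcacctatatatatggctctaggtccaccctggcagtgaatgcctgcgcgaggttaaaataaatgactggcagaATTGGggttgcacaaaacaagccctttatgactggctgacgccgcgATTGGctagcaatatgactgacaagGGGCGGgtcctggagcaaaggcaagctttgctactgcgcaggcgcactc
Setdb1 (chr3:95357203-95357452, minus strand): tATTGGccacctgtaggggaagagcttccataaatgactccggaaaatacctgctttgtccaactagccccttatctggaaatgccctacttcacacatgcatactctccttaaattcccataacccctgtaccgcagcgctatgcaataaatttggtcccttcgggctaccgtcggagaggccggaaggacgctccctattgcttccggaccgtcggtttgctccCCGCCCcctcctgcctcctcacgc
Setdb2 (chr14:59440881-59441130, minus strand): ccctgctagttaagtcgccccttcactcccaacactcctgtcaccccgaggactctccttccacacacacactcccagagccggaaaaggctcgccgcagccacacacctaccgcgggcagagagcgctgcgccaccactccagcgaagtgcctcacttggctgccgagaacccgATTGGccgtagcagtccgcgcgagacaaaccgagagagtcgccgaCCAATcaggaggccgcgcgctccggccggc
Suv39h2 (chr2:3474987-3475236, minus strand): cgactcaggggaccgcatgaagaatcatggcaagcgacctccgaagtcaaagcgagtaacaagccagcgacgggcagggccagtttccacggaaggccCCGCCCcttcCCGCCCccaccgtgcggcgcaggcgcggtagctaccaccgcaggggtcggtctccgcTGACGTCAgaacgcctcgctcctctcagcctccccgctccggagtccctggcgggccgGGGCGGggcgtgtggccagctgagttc
CCAAT stood in the windows of Suv39h1 (2 matches), Setdb1 (1 match) and Setdb2 (2 matches), and in none of the windows of Ehmt1, Ehmt2 and Suv39h2. The Setdb1 match began 249 bases before the start site, at the far edge of the window, so that a slightly shorter window would miss it. Those of Suv39h1 began 120 and 74 bases, and those of Setdb2 75 and 30 bases, before the start site. CCAAT was present in 34.2% of 27025 windows of the same length, 1 per gene. GGGCGG stood in 5 of the 6 windows, Setdb2 being the exception, and in 32.7% of all windows. The share of G and C was 51.6% (Suv39h1) to 69.6% (Suv39h2) in the 6 windows, and its median over all windows was 52%. The shares over all windows are not matched for it. CACGTG was found in Ehmt2 alone (5.93% of all windows) and TGACGTCA in Suv39h2 alone (1.56%). TATAAA (12.9% of all windows), TTTCCCGC (0.936%) and CCGGAAGT (2.93%) were found in none of the 6. These matches describe letters only, and whether any protein binds there was not tested. The start sites of the Suv39h1, Suv39h2 and Setdb1 windows are the gene starts of the count table. Those of Setdb2 (59440880 against 59440877), Ehmt2 (34898474 against 34898499) and Ehmt1 (24919609 against 24887071) lie outside the exons counted.

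Library totals ran from 32266861 to 45396233 counted reads, and the 6 genes had 1091 to 29444 counts in a library. Counting error would be at most 3.03% of a value if reads were independent. It is larger where both reads of a pair were counted. Levels are given as CPM, counts scaled to a common library size with TMM, or, for comparisons between genes, as RPKM (CPM per kilobase of counted exon). Chd8, the targeted gene, had 257 to 285 CPM in Thy1+ control, 262 to 299.5 in Thy1+ CKO, 266 to 308 in c-Kit+ control and 289 to 310.2 CPM in c-Kit+ CKO libraries. The genotypes overlapped, and counts over the whole gene do not check the deletion of some of its exons. The authors reported efficient loss of CHD8 protein in CKO spermatogonia from immunoblots of cells of adult mice. They also mapped CHD8 binding by ChIP-seq in Thy1+ and c-Kit+ spermatogonia of the age used here. In CKO cells they reported hardly any CHD8 peaks. The antigens separated the populations: Thy1 was at 11.7 to 17.3 CPM in Thy1+ and 0.440 to 1.05 in c-Kit+ libraries, and Kit at 175 to 438 and 633 to 768 CPM. The 8 germ cell markers were Ddx4, Dazl, Mael, Sall4, Zbtb16, Uchl1, Tex101 and Sohlh1, and none was at 0 in any library. Their sums were 2000 to 2802 CPM in Thy1+ control, 1441 to 2307 in Thy1+ CKO, 3036 to 3494 in c-Kit+ control and 2307 to 2646 CPM in c-Kit+ CKO. Sums over 44 markers of somatic testis cells were 12440 to 17390, 14550 to 21280, 3482 to 4690 and 6918 to 8504 CPM in the same order. The Thy1+ libraries thus held much RNA of stromal cells (11180 to 18900 CPM over 7 genes), and in Thy1+ cells of each genotype replicate 2 had the highest germ cell and the lowest stromal sum.

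**Figure D1:**
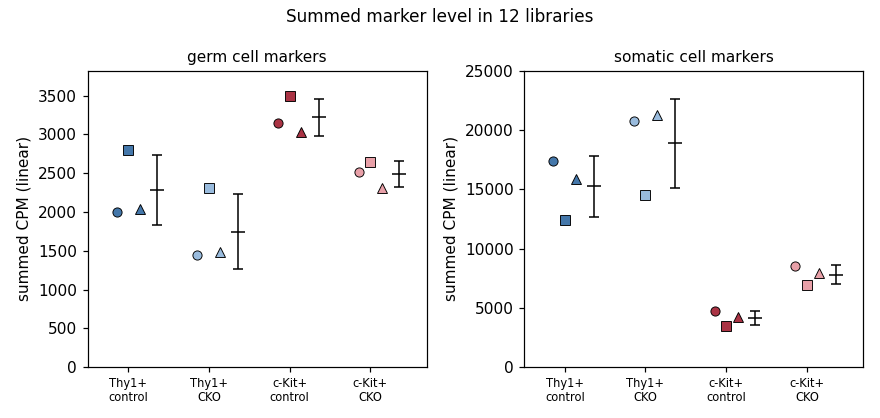
Summed CPM (y axis, linear) of 8 germ cell markers (left) and 44 somatic cell markers (right) in each of 12 libraries. Circles, squares and triangles are replicates 1, 2 and 3, and bars are the mean and SD. In c-Kit+ cells the CKO libraries lie below the controls for germ cell markers (at most 2646 against at least 3036) and above them for somatic markers (at least 6918 against at most 4690).

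Suv39h1 and Suv39h2, the pericentromeric enzymes, differed from each other. Suv39h1 had 120, 150.4 and 123 CPM in the c-Kit+ control and 79.9, 80.7 and 75.9 CPM in the c-Kit+ CKO libraries. Every CKO library was below every control library. The log2 fold change of Suv39h1 was -0.75 (SE 0.09, 95% confidence interval -0.94 to -0.56, edgeR adjusted p = 1.30e-04), a level that fell by 40.5%. Suv39h2 had 91.0, 88.2 and 98.7 CPM in c-Kit+ control and 86.8, 90.2 and 85.0 CPM in c-Kit+ CKO libraries. These ranges overlapped, and the log2 fold change of Suv39h2 was -0.10 (SE 0.07, interval -0.25 to 0.05, edgeR adjusted p = 0.271).

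Both SETDB genes were lower in c-Kit+ CKO libraries. Setdb1 had 268, 346 and 301.5 CPM in the control and 193, 189 and 184 CPM in the CKO libraries. These groups did not overlap, and its log2 fold change was -0.71 (SE 0.08, interval -0.89 to -0.52, edgeR adjusted p = 1.64e-04). Setdb2 had 68.2, 91.0 and 84.0 CPM in the control and 50.5, 50.7 and 51.9 CPM in the CKO libraries, again without overlap. Its log2 fold change was -0.68 (SE 0.10, interval -0.90 to -0.47, edgeR adjusted p = 4.00e-04). For Suv39h1, Setdb1 and Setdb2 alike the spread among the 3 CKO libraries was small (SD 2.56, 4.08 and 0.771 CPM), and among the controls it was larger (SD 16.7, 38.9 and 11.7 CPM).

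The G9a/GLP genes showed no such difference. Ehmt1 had 204, 197 and 201 CPM in c-Kit+ control and 179, 199 and 192 CPM in c-Kit+ CKO libraries. Its log2 fold change was -0.09 (SE 0.06, interval -0.22 to 0.04, edgeR adjusted p = 0.240). Ehmt2 had 690.5, 659 and 654 CPM in the control and 677, 704.5 and 653 CPM in the CKO libraries. Its log2 fold change was 0.01 (SE 0.06, interval -0.12 to 0.13, edgeR adjusted p = 0.928), so that a change past the minimum of 0.5 lay outside the interval for both genes.

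In all, 3 of the 6 genes were called in c-Kit+ cells (adjusted p under 0.05 and absolute log2 fold change over 0.5), each lower in CKO, where 7.41% of 17134 tested genes were called lower. The libraries of those 3 genes did not overlap, as was the case, with CKO lower, for 24.0% of tested genes. The 3 calls were also made with any 1 of the 6 libraries left out. The median log2 fold change was -0.39 over the 6 genes and 0.01 over all tested genes.

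The germ cell marker sum changed by -0.37 (log2) in the same comparison, and 1 of its 8 genes was called lower (7.41% of all tested genes were). Of 42 tested somatic markers 23 were called higher (14.4% of all tested genes were), with none lower. In bulk samples, fewer germ cells among the collected cells and less RNA of a gene per germ cell cannot be told apart. Divided by the germ cell marker sum of its own library, Suv39h1 was still lower in every CKO than in every control library (log2 difference -0.36), as was Setdb1 (-0.31). The relative level of Setdb2 had a log2 difference of -0.29, with overlapping libraries. On that scale Ehmt1 (0.29), Ehmt2 (0.40) and Suv39h2 (0.29) were higher in every CKO library. Dividing by 1 sum shifts the 6 genes alike, so that it cannot change the differences between them. The sum includes Zbtb16 (Plzf), which the authors list among CHD8-bound genes lower in Thy1+ CKO cells. It can thus change with genotype by itself, not only with the number of germ cells. No test was run on this scale, which was chosen after the values were seen.

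**Figure D2:**
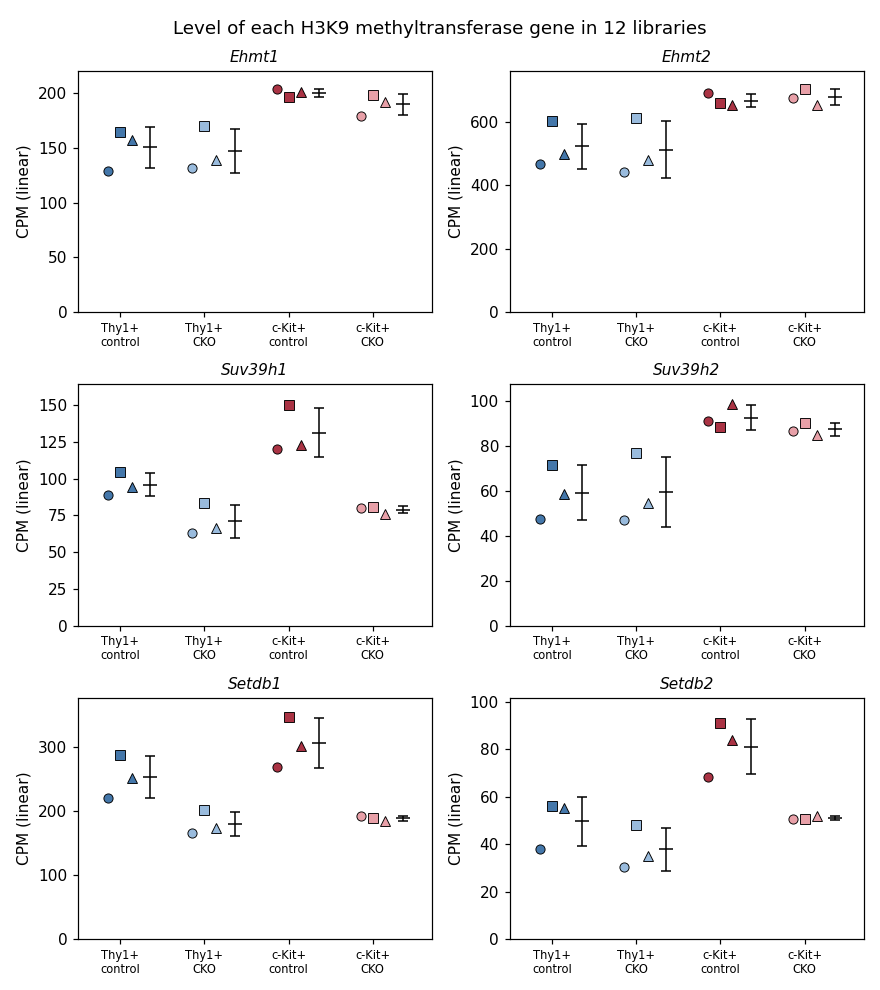
CPM (y axis, linear, from 0) of each of the 6 genes in each of 12 libraries. Circles, squares and triangles are replicates 1, 2 and 3, and bars are the mean and SD (n = 3). Suv39h1, Setdb1 and Setdb2 are lower in c-Kit+ CKO than in every c-Kit+ control library, and Ehmt1, Ehmt2 and Suv39h2 overlap between genotypes.

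In Thy1+ cells Suv39h1 had 89.0, 104 and 94.3 CPM in the control and 62.9, 83.7 and 66.4 CPM in the CKO libraries. All 3 CKO libraries were below the controls, with a log2 fold change of -0.42 (SE 0.14, interval -0.74 to -0.11, edgeR adjusted p = 0.325). Setdb1 had 220.5, 287 and 251 CPM in the control and 165, 201.5 and 173 CPM in the CKO libraries. These groups did not overlap either, and its log2 fold change was -0.48 (SE 0.14, interval -0.79 to -0.17, edgeR adjusted p = 0.295). Setdb2 had 37.7, 56.0 and 55.1 CPM in the control and 30.5, 47.9 and 34.8 CPM in the CKO libraries. These ranges overlapped, and its log2 fold change was -0.38 (SE 0.22, interval -0.88 to 0.12, edgeR adjusted p = 0.480).

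For the other 3 genes the Thy1+ groups lay on top of each other. Ehmt1 had 129, 165 and 158 CPM in control and 132, 170.0 and 139 CPM in CKO libraries (log2 fold change -0.02, SE 0.14). Ehmt2 had 467, 603 and 499.8 CPM in control and 442, 614 and 481 CPM in CKO libraries (log2 fold change -0.02, SE 0.16). Suv39h2 had 47.3, 71.6 and 58.6 CPM in control and 46.9, 76.9 and 54.7 CPM in CKO libraries (log2 fold change 0.02, SE 0.22). Replicate 2 was the highest library of its group for each of the 6 genes in Thy1+ control and in Thy1+ CKO cells, as it was for the germ cell marker sum.

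None of the 6 genes was called in Thy1+ cells, where edgeR's quasi-likelihood test called 0% of 17416 genes lower and none higher. At an unadjusted p under 0.05 it had 2145 genes, 2 of the 6 (Suv39h1 and Setdb1) among them. The edgeR exact test called 294 genes and DESeq2 384, and neither called any of the 6. Non-overlapping libraries with CKO lower were seen for those 2 and for 11.1% of tested genes. Same-numbered Thy1+ libraries deviated from their group means together, and with the replicate number as a block the edgeR adjusted p was 4.47e-05 for Suv39h1 (log2 fold change -0.43), 4.29e-06 for Setdb1 (-0.47) and 0.00203 for Setdb2 (-0.38). In that blocked fit 13.7% of all genes were lower at an adjusted p under 0.05. The 3 fold changes stayed under the minimum of 0.5, so that blocked and unblocked fits both called none of the 6. The germ cell marker sum changed by -0.40 (log2) here, and relative to it Suv39h1 (-0.04), Setdb1 (-0.09) and Setdb2 (0.01) overlapped between genotypes, while Ehmt1, Ehmt2 and Suv39h2 were at 0.37 to 0.40.

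The genotype effects in the populations were compared in a fit of all 12 libraries. No gene of 18002 passed (0%), and none of the 6 did (edgeR adjusted p from 0.627 to 0.995). The unadjusted p was under 0.05 for 1804 genes and for none of the 6. The c-Kit+ effect minus the Thy1+ effect was -0.26 (SE 0.16, interval -0.62 to 0.09) for Suv39h1, -0.17 (SE 0.16) for Setdb1 and -0.23 (SE 0.25) for Setdb2 on the log2 scale. The calls in c-Kit+ and their absence in Thy1+ cells therefore do not show that the effects differ.

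In control mice the populations themselves differed for most of the 6 genes. Setdb2 (log2 difference c-Kit+ minus Thy1+ 0.68, SE 0.17, edgeR adjusted p = 0.0149) and Suv39h2 (0.62, SE 0.14, edgeR adjusted p = 0.00985) were called higher in c-Kit+ cells, 2 of 6 where 7.04% of 17350 genes were called higher. Suv39h1 (0.42, SE 0.11), Ehmt1 (0.38, SE 0.10) and Ehmt2 (0.32, SE 0.10) passed the adjusted p alone, which makes 5 of 6 against 13.7% of all genes. The call of Setdb2 was lost without c-Kit+ control replicate 2 (edgeR adjusted p = 0.0612) or 3 (0.0502), and that of Suv39h2 without Thy1+ control replicate 1, where its log2 difference was 0.49. Setdb1 had a log2 difference of 0.24 (SE 0.12, edgeR adjusted p = 0.157), with overlapping libraries. Same-numbered control libraries also deviated together, and with the replicate block Setdb1 had an edgeR adjusted p of 0.0134, so that all 6 genes passed it, beside 19.2% of all genes. The germ cell marker sum was higher in c-Kit+ libraries as well (3036 to 3494 against 2000 to 2802 CPM). The somatic marker sum was lower in them (3482 to 4690 against 12440 to 17390 CPM). The part of either in these differences was not tested.

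In CKO mice the same comparison called Suv39h2 (0.54, SE 0.16, edgeR adjusted p = 0.0383), 1 of 6 where 5.01% of 17346 genes were called higher in c-Kit+ cells. Ehmt1 (0.36, SE 0.11) and Ehmt2 (0.39, SE 0.12) passed the adjusted p alone, which makes 3 of 6 against 8.86% of all genes. That call of Suv39h2 was lost when any 1 library other than Thy1+ CKO replicate 2 was left out (log2 difference 0.38 to 0.58, edgeR adjusted p from 0.0601 to 0.145). Setdb2 (0.42, SE 0.16, edgeR adjusted p = 0.0721), Suv39h1 (0.14, SE 0.11, edgeR adjusted p = 0.375) and Setdb1 (0.06, SE 0.09, edgeR adjusted p = 0.653) did not pass. These comparisons use the same libraries as the genotype comparisons, so that they are not separate evidence.

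**Figure D3:**
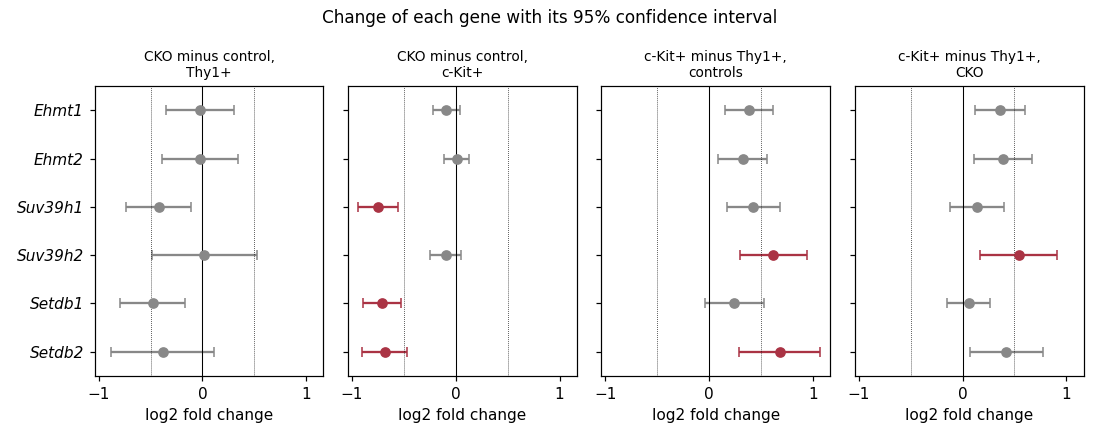
Log2 fold change (x axis) of each of the 6 genes in 4 comparisons with its 95% confidence interval from the edgeR fit, red where the gene was called and grey otherwise, with dotted lines at -0.5 and 0.5. In c-Kit+ cells Suv39h1, Setdb1 and Setdb2 lie between -0.75 and -0.68, and the other 3 genes lie between -0.10 and 0.01.

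Per kilobase of counted exon, Ehmt2 was the most abundant of the 6 in every group (129 RPKM in Thy1+ control, 126 in Thy1+ CKO, 164 in c-Kit+ control and 167 in c-Kit+ CKO), and Setdb1 was next (54.2, 38.6, 65.5 and 40.5 RPKM). Below them Suv39h1 and Ehmt1 stood side by side in control cells, at 30.8 and 29.8 RPKM in Thy1+ and at 42.1 and 39.7 RPKM in c-Kit+ libraries, with overlapping ranges. In c-Kit+ CKO libraries Ehmt1 (37.6 RPKM) was above Suv39h1 (25.3 RPKM) without overlap. Setdb2 and Suv39h2 were lowest, with Setdb2 the higher mean in control groups (16.3 against 13.8 RPKM in Thy1+, 26.7 against 21.6 RPKM in c-Kit+) and the lower in CKO groups (12.4 against 13.9 and 16.8 against 20.4 RPKM). The ranges of those 2 genes overlapped in each group except c-Kit+ CKO. From the highest to the lowest gene the RPKM differed 9.33-fold in Thy1+ control, 10.1-fold in Thy1+ CKO, 7.60-fold in c-Kit+ control and 9.93-fold in c-Kit+ CKO libraries.

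A ratio of RPKM within a library does not depend on how libraries are scaled. Suv39h1 to Suv39h2 was 1.81, 2.34 and 1.71 in c-Kit+ control and 1.26, 1.23 and 1.23 in c-Kit+ CKO libraries, and it was lower in every CKO library (difference of mean log2 ratios -0.64). In Thy1+ cells it was 2.59, 2.00 and 2.21 in control and 1.84, 1.50 and 1.67 in CKO libraries, again lower in every CKO library (-0.44). For each the two-sided exact permutation test gave p = 0.1, the smallest that 3 against 3 libraries allow, and an adjusted p of 0.2 over the 12 ratio comparisons made. Between CKO populations Suv39h1 to Suv39h2 was lower in every c-Kit+ library (difference of mean log2 ratios -0.42, exact permutation p = 0.1, adjusted p = 0.2).

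Ehmt1 to Ehmt2 ran from 0.213 to 0.254 over all 12 libraries. In c-Kit+ cells it was 0.237 to 0.247 in control and 0.213 to 0.236 in CKO libraries, which did not overlap (difference of mean log2 ratios -0.10, exact permutation p = 0.1, adjusted p = 0.2). In Thy1+ cells its mean was 0.232 in both genotypes, with overlapping libraries. Setdb2 to Setdb1 had a mean of 0.300 in Thy1+ control and 0.320 in Thy1+ CKO, and of 0.407 in c-Kit+ control and 0.416 in c-Kit+ CKO libraries. The genotypes overlapped for this ratio in both populations, and in each genotype the c-Kit+ libraries were all above the Thy1+ libraries (exact permutation p = 0.1 for each, adjusted p = 0.2).

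**Figure D4:**
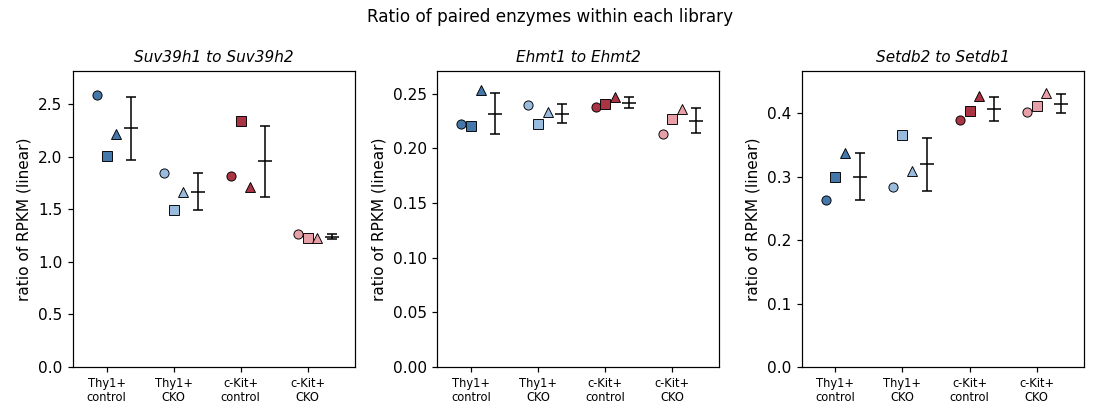
Ratio of RPKM within each library (y axis, linear, from 0) for 3 gene pairs in 12 libraries. Circles, squares and triangles are replicates 1, 2 and 3, and bars are the mean and SD. Suv39h1 to Suv39h2 is lower in every CKO than in every control library of the same population, and Ehmt1 to Ehmt2 lies between 0.213 and 0.254, with c-Kit+ CKO below c-Kit+ control.

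Across the 12 libraries the log2 CPM of the 6 genes fell into 2 blocks, given here as a description over libraries that share groups, sorting and depth. Suv39h1 and Setdb1 had a Pearson correlation of 0.97, Suv39h1 and Setdb2 of 0.91 and Setdb1 and Setdb2 of 0.86. Ehmt1, Ehmt2 and Suv39h2 had correlations of 0.95 to 0.98 with each other. Between the blocks the values ran from 0.36 (Ehmt2 and Setdb1) to 0.83 (Ehmt1 and Setdb2), the higher ones being those of Setdb2. Among 17417 other tested genes those most like each member were Zswim5 and Mpp6 for Ehmt1, Cep43 and Nop9 for Ehmt2, Tuft1 and Specc1 for Suv39h1, 1700067K01Rik and Zswim5 for Suv39h2, Hfm1 and Shoc1 for Setdb1, and Polq and 6430548M08Rik for Setdb2 (correlations from 0.988 to 0.995). Each member had 534 to 1109 genes at a correlation over 0.9.

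Of 27 other genes of the H3K9 pathway, in lists of partners, readers, PRDM writers and demethylases, all were tested in c-Kit+ cells, and 5 were called lower and 4 higher in CKO. Over all tested genes these shares were 7.41% and 14.4%. The median log2 fold change of the 27 was -0.10. In Thy1+ cells none of the 27 was called, and the replicate block called Atf7ip2 (-0.75) and Prdm16 (-0.83) lower, 2 of 27 where 4.93% of all genes were called lower in that fit.

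Among SETDB1 partners Atf7ip2, a germ cell relative of the SETDB1 cofactor gene Atf7ip, had 35.7, 49.8 and 43.4 CPM in c-Kit+ control and 21.7, 22.2 and 20.4 CPM in c-Kit+ CKO libraries. The groups did not overlap, and its log2 fold change was -1.02 (SE 0.12, edgeR adjusted p = 1.34e-04). Atf7ip itself (0.09, edgeR adjusted p = 0.421) and Trim28, the corepressor that brings SETDB1 to its targets (-0.10, edgeR adjusted p = 0.149), did not pass.

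Of the HUSH complex and its partner MORC2A, which act with SETDB1 on retroelements, 2 of 4 genes were called lower. Over all tested genes 7.41% were. Mphosph8, whose product binds methylated H3K9, had 180.5, 271 and 224 CPM in control and 134, 139.9 and 131 CPM in CKO libraries, without overlap (log2 fold change -0.75, SE 0.14, edgeR adjusted p = 0.00380). Pphln1, the gene of periphilin, had a log2 fold change of -0.60 (SE 0.08, edgeR adjusted p = 2.41e-04). Morc2a passed the adjusted p but not the fold minimum (-0.47, SE 0.08, edgeR adjusted p = 8.61e-04), and Tasor did not pass (0.05, edgeR adjusted p = 0.798).

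None of the 3 G9a/GLP partner genes and none of the 3 genes of HP1, the reader of methylated H3K9, was called. Wiz, a zinc finger partner of G9a and GLP (-0.28, SE 0.06, edgeR adjusted p = 0.00221), and Cbx1, which encodes HP1 beta (-0.22, SE 0.07, edgeR adjusted p = 0.0306), had the lowest p of these lists. Of the PRDM genes, Prdm16 was called lower (-0.58, SE 0.12, edgeR adjusted p = 0.00218). Mecom was called higher (1.32, SE 0.36, edgeR adjusted p = 0.0132), from 0.692 to 0.885 CPM in control to 1.21 to 2.99 CPM in CKO libraries, and lost the call without c-Kit+ CKO replicate 1 (0.93, edgeR adjusted p = 0.0845).

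Of 11 genes of enzymes that remove H3K9 methylation, 3 were called higher and 1 lower in c-Kit+ CKO libraries. Over all tested genes 14.4% were called higher and 7.41% lower. At an adjusted p under 0.05 alone, 5 of the 11 were higher and 3 lower. The median log2 fold change of the 11 was 0.005. Kdm4a, which acts on trimethylated H3K9, had 67.0, 59.9 and 59.4 CPM in c-Kit+ control and 101, 98.8 and 97.9 CPM in c-Kit+ CKO libraries (log2 fold change 0.66, SE 0.07, edgeR adjusted p = 8.29e-05). Phf2 had 18.9, 15.0 and 17.6 CPM in control and 35.4, 32.5 and 39.2 CPM in CKO libraries (1.04, SE 0.12, edgeR adjusted p = 1.00e-04). Kdm7a was at 148 to 164 CPM in control and at 224 to 237 CPM in CKO libraries (0.56, SE 0.06, edgeR adjusted p = 9.96e-05), and it lost the call in a fit of all 12 libraries (0.61, edgeR adjusted p = 0.133). In Thy1+ control libraries, with a stromal marker sum of 11180 to 14370 against 1835 to 2303 CPM in c-Kit+ control libraries, Phf2 was at 41.0 to 66.4 CPM and Kdm4a at 81.0 to 106 CPM, above all c-Kit+ control libraries. Kdm7a, at 118 to 221 CPM in Thy1+ control libraries, overlapped with c-Kit+ control libraries. The somatic marker sum also rose in c-Kit+ CKO libraries, and its part in the change of these genes was not tested. Kdm4d, named after its values were seen, was called lower (-1.08, SE 0.34, edgeR adjusted p = 0.0237) at 1.50 to 3.81 CPM in control and 1.21 to 1.58 CPM in CKO libraries, which overlapped.

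**Figure D5:**
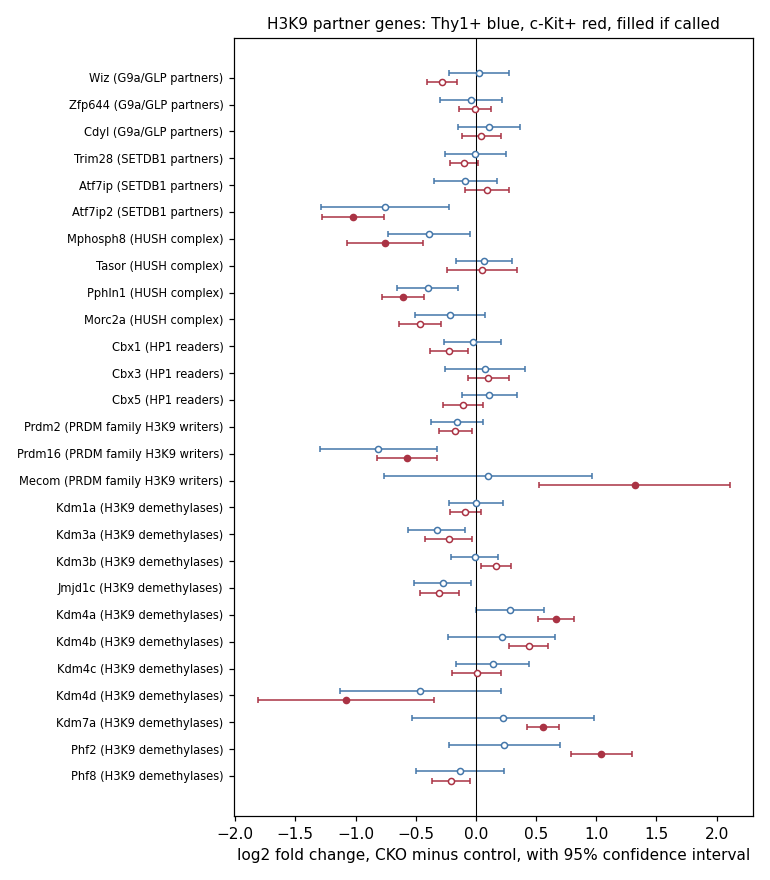
Log2 fold change (x axis, CKO minus control) of 27 genes of the H3K9 pathway with 95% confidence intervals, blue in Thy1+ and red in c-Kit+ cells, filled where called. Filled points in c-Kit+ cells run from -1.08 (Kdm4d) to 1.32 (Mecom), and no point in Thy1+ cells is filled.

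The 6 genes lie on chromosomes X (Suv39h1, chrX:8061171-8074760), 2 (Suv39h2, chr2:3455815-3474986, and Ehmt1, chr2:24790773-24887071), 3 (Setdb1, chr3:95323525-95357202), 14 (Setdb2, chr14:59402011-59440877) and 17 (Ehmt2, chr17:34898499-34914047) of mm10, as the counted exons give them. The exons of Suv39h2 share 4.90% of their bases with Dclre1c on the other strand, those of Setdb1 share 0.987% with Cers2, and those of Suv39h1 share 6.26% with a gene that has no symbol in the table used. Reads there cannot be assigned by strand, since the counting used none. The exons of Ehmt1, Ehmt2 and Setdb2 share none.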

How the data were processed

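RNA-seq libraries were made from poly(A) RNA of sorted spermatogonia. The authors used Trimmomatic 0.39 for trimming, HISAT2 2.1.0 for mapping (mm10) and featureCounts for counting on RefSeq exons. The deposited table holds raw counts, not normalized, and the command in its header (featureCounts 2.0.3) sets neither strand nor fragment counting, so both reads of a pair could count. Even numbers made up 65.6% to 69.6% of the small nonzero counts of a library, and library totals ran from 32266861 to 45396233. Symbols were found for 25275 of 27179 gene IDs. The 30 ChIP-seq samples were not analysed here.

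Counts were tested with edgeR 4.0.16 in R 4.3.3 (quasi-likelihood F test, TMM, filterByExpr) with Benjamini-Hochberg adjustment over all tested genes. A gene was called if its adjusted p was under 0.05 and its log2 fold change beyond 0.5 in either direction, and the interaction at an adjusted p under 0.05. Standard errors were taken as the log2 fold change divided by the square root of F. Log2 ratios of RPKM were compared by exact permutation tests, as gene 1 of a family to gene 2, except Setdb2 to Setdb1. The labels do not say whether replicates came from separate animals, so p-values measure the spread between these samples. The authors name 3 male pups for each analysis and n = 3 per genotype, without saying whether pups were pooled. Since Thy1+ cells were taken from the cells left unbound by the c-Kit+ beads, libraries of the 2 populations may share animals. The unblocked population and interaction fits treat all libraries as independent. Pairs of libraries of a group differed by more than counting error (chi-square per degree of freedom 10.8 to 76.7). The scripts were tested on simulated data. With changes of 0.7 (log2) the unblocked test recovered 29 of 100 changed genes at the spread of the Thy1+ libraries. At the spread of the c-Kit+ libraries it recovered 68 of 100. With changes of 1.5 it recovered 90 of 100 at the Thy1+ and 98 of 100 at the c-Kit+ spread. Unchanged genes called were 12 at the Thy1+ and 3 at the c-Kit+ spread. Changes as small as the -0.38 to -0.48 seen in Thy1+ cells were not simulated.

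Same-numbered libraries correlated in their deviations from the group means at 0.266 to 0.490 between Thy1+ genotypes, and at 0.134 to 0.298 between control populations, over the genes tested in each comparison. The limit for pairing was 0.1 in all 3 pairs. For c-Kit+ genotypes the result depended on the genes used: 0.101 to 0.125 over the genes tested there, and 0.083 to 0.107, with 1 of 3 pairs over the limit, over those tested in all 12 libraries. The first gene set was adopted after both results had been seen, and no call of the 6 genes in c-Kit+ cells depended on it. CKO populations and the interaction were not paired by this limit.

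Genes were named by a rule: the 6 members, Chd8, up to 3 called genes with the lowest p of each partner list (or the gene with the lowest p in c-Kit+ cells) and the 2 genes most correlated with each member. Outside the rule, the antigens Thy1 and Kit are given as a check of sorting, Atf7ip, Trim28, Morc2a and Tasor as the remaining genes of their lists, and Kdm4d as the remaining called gene of its list, these 5 after their values were seen. The members and lists were chosen with earlier results of these data known. Alternatives were the edgeR exact test, DESeq2 1.42.0, other scalings and filters, a fit of all libraries, the replicate block, no fold minimum, and each library left out in turn.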

Additional observations from a re-analysis of the deposited data

How the results depend on the processing

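Over the alternatives to scaling, filtering and test, and with each library left out in turn, 3 of the 6 genes were called lower in c-Kit+ CKO cells, and none was called in Thy1+ cells or passed the interaction. In Thy1+ cells the genes called in all rose from 0 to 294 with the edgeR exact test, 384 with DESeq2, 251 in a fit of all libraries and 1421 with the replicate block, and ran from 0 to 15 with a library left out. The partner genes called there were 1 with the exact test, 1 with DESeq2 and 2 with the block. With the replicate block and no minimum on the fold change, 3 of the 6 passed in Thy1+ cells (5119 genes in all) and 6 between control populations (8117 genes), and 7443 genes passed in c-Kit+ cells, against 6697 without a minimum or block. The block moved Setdb2 between CKO populations to an adjusted p of 0.0255 (edgeR), under the fold minimum, and changed no call of the 6 genes at both thresholds. For the interaction DESeq2 passed 59 genes and the block 573, against 0 to 1 with a library left out. Between control populations 5 of the 6 were called without a fold minimum, and 1 to 3 with a library left out. Between CKO populations 2 were called with library size only and 3 without a fold minimum, and 0 to 3, of 2333 to 5009 genes in all, with a library left out. Small values changed sign: Suv39h2 in Thy1+ cells was at -0.011 with library size only, and Ehmt2 in c-Kit+ cells at -0.004 with DESeq2 or its size factors. With a library left out the ranges that crossed 0 in Thy1+ cells were -0.151 to 0.058 (Ehmt1), -0.18 to 0.11 (Ehmt2) and -0.22 to 0.19 (Suv39h2). Others were -0.019 to 0.027 (Ehmt2, c-Kit+ genotypes), -0.021 to 0.127 (Setdb1, CKO populations), and, for the interaction, -0.16 to 0.10 (Ehmt1), -0.11 to 0.23 (Ehmt2) and -0.30 to 0.16 (Suv39h2). The log2 difference of Ehmt1 to Ehmt2 between Thy1+ genotypes ran from -0.035 to 0.068, and that of Setdb2 to Setdb1 from -0.01 to 0.18 in Thy1+ and -0.001 to 0.065 in c-Kit+ cells. The causes were not tested. The order of levels was the same with library size only.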
